A study of Homo sapiens with 4 samples.

Results

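DIS3L was the lowest of 10 RNA decay genes relative to control when ZFX was lowered in DAOY, a human medulloblastoma cell line, while its relatives DIS3 and DIS3L2 and the measured subunits of the RNA exosome stayed within 1.5-fold of the control. The 10 genes are the DIS3 family nucleases DIS3L, DIS3 and DIS3L2, the exosome subunits EXOSC2, EXOSC3, EXOSC9 and EXOSC10, the exonucleases XRN1 and XRN2, and the decapping enzyme DCP2. They were picked by name, with their differences between the hairpin arrays and the control array already known, from 18417 genes that have a probe set carrying a single gene symbol. Each of the 10 is read by 1 such probe set, and all 10 lie above the intensity filter, which left 13813 genes. Because that comparison chose them, their differences are given below as a description and without a test.

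The study has 4 arrays, each from 1 sample of DAOY cells infected with a lentivirus that carries a short hairpin RNA and then kept in puromycin at 2 ug/mL, the drug that kills uninfected cells. In 3 samples, labelled ZFX KD, the hairpin (H2, H3 or H4) targets ZFX, an X-linked transcription factor of the zinc finger class. The single control, labelled Ctrl, carries the non-targeting hairpin SCR, here called the scrambled array. All 4 samples share the infection (16 to 24 hours), the recovery (48 hours), the drug and about 48 hours of selection before RNA was taken. The labels do not say that any infection was repeated, so each hairpin is 1 sample, and the spread given below is the spread between hairpins. DAOY is an established line, and these are bulk cultures, in which fewer cells of a type and less RNA per cell cannot be told apart.

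ZFX itself read 1430 on the scrambled array, and the H2, H3 and H4 arrays read 745, 750 and 996, which is 52.1%, 52.4% and 69.6% of it. The knockdown was thus partial with every hairpin and weakest with H4. The array of H2 stood apart most often: at 274 of the 13813 genes it was at least 1.5-fold away from each of the other 3 arrays, against 33 genes for H3, 77 for H4 and 50 for the scrambled array. Of 10 markers of cerebellar progenitors and medulloblastoma, 7 were above the filter (log2 intensity 6.78) on all arrays, including ZIC1, ZIC2, SOX2 and OTX2, while ATOH1, NES and GLI1 were not. All 5 mesenchymal markers were above it, as were 1 of 4 measured leukocyte markers (CD14, not PTPRC) and 0 of 4 endothelial ones.

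Cells destroy RNA from both ends. The RNA exosome, a barrel of EXOSC subunits, threads RNA from its 3′ end into an attached nuclease, which is DIS3 in the nucleus or DIS3L in the cytoplasm, with EXOSC10 as a further nuclear nuclease. DIS3L2 works without the exosome and degrades RNAs tagged with uridines. From the 5′ end, DCP2 removes the cap of a messenger RNA, XRN1 then degrades the body in the cytoplasm, and XRN2 does so in the nucleus.

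The promoter windows below belong to the gene with the largest difference (DIS3L), its nuclear relative (DIS3) and the pair of genes with a shared pattern over the arrays (XRN1 and DCP2). They run from 250 bases before to 50 bases after the start site, come from RefSeq (GRCh38.p14) and are written 5′ to 3′ on the gene's strand. All 10 genes matched the RefSeq promoter table, with 13 windows in all, because DIS3L, EXOSC3 and XRN2 have more than 1 start. Capitals mark matches, on either strand, to GGGCGG (bound by SP1), CCAAT (NF-Y) or CCGGAAG (ETS factors).
DIS3L (chr15:66293318-66293617, plus strand): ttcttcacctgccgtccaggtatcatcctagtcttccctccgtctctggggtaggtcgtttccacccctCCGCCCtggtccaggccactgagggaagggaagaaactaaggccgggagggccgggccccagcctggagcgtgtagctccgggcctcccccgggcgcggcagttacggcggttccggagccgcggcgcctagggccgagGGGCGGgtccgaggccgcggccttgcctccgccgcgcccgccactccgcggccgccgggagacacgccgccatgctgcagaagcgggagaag
DIS3 (chr13:72781851-72782150, minus strand): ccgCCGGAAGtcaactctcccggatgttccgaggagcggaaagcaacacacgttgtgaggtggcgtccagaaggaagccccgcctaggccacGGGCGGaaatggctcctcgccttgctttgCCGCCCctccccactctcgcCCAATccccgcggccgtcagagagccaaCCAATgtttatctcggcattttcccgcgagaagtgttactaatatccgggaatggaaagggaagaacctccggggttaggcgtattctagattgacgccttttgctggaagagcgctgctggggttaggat
XRN1 (chr3:142447988-142448287, minus strand): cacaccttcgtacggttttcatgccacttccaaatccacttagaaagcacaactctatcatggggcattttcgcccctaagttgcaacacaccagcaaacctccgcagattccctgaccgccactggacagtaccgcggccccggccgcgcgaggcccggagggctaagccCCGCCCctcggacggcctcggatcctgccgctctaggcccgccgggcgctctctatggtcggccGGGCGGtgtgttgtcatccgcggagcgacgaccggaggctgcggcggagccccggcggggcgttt
DCP2 (chr5:112976548-112976847, plus strand): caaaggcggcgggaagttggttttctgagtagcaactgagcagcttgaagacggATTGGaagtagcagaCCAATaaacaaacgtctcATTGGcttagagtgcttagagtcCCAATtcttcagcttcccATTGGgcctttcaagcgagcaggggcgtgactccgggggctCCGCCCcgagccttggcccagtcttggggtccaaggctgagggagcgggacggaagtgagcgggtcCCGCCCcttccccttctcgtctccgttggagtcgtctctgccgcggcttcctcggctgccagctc
The motif AGGCCT, which has been reported for ZFX and reads the same on both strands, was in 0 of the 13 windows and in 10.9% of the 35116 windows of the whole table. GGGCGG was in 10 of the 13 windows (8 of the 10 genes, not EXOSC9 or XRN2) and in 45.0% of all windows. CCAAT was in 5 of the 13 and in 34.6% of all, and CCGGAAG was in 2 of the 13, those of DIS3 and DIS3L2, and in 10.3% of all. The DIS3L window shown has 2 matches to GGGCGG and none to the other motifs, and the DCP2 window has 5 matches to CCAAT where the XRN1 window has 0. These windows end shortly after the start site, and a match or its absence describes only these letters.

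DIS3L, the nuclease of the cytoplasmic exosome, read 581 on the scrambled array, and the H2, H3 and H4 arrays read 225, 295 and 229. All 3 hairpin arrays lay far below the scrambled one, at 38.8%, 50.8% and 39.3% of its value, and H2 and H4 gave nearly the same level. The mean log2 difference, hairpin minus scrambled, was -1.23 ± 0.22 (SD, n = 3 hairpins), which is 42.6% of the scrambled level. Leaving out H2, the array that stood apart, gave -1.16. The order of the hairpins was not that of ZFX: H4, with the most ZFX left, had as little DIS3L as H2. Among the 13813 genes DIS3L had the 9th lowest mean, and it ranked 59th lowest with H2, 21st with H3 and 11th with H4. It was the only one of the 10 genes that all 3 hairpins left at least 1.5-fold lower, as they did 43 genes in all (0.311% of those tested). None of the 10 was 1.5-fold higher with all 3, as 0.0507% of genes were. All of these values share the single scrambled array, whose own error is not known.

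**Figure D1:**
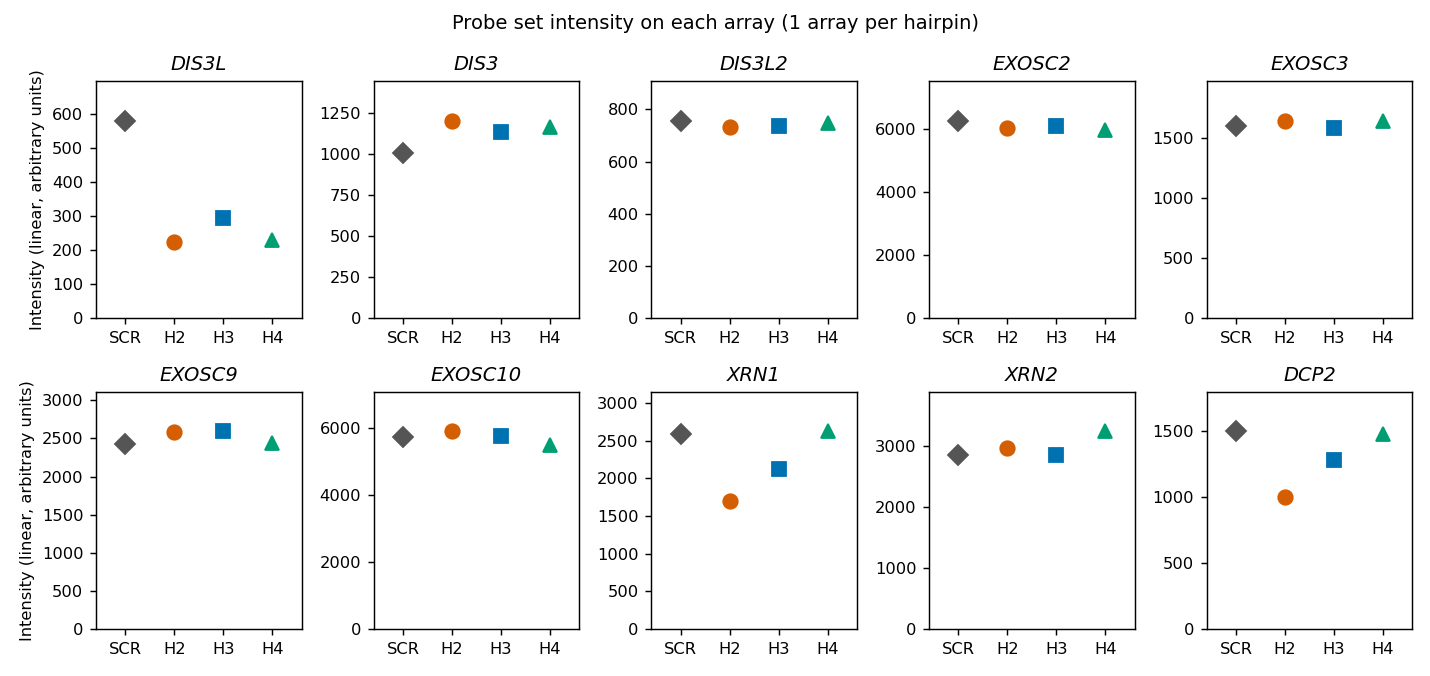
Intensity (linear scale, arbitrary units, each axis from 0) of the 10 genes on the scrambled (SCR), H2, H3 and H4 arrays, 1 point per array and no error bars since each is 1 array. DIS3L reads 581 on the scrambled array and 225 to 295 on the others, XRN1 and DCP2 are lowest with H2, DIS3 is higher on all 3 hairpin arrays, XRN2 is highest with H4, and the other genes are nearly level.

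DIS3, the nuclear counterpart of DIS3L, lay on the other side. The scrambled array read 1004, and the H2, H3 and H4 arrays read 1202, 1131 and 1164. Each hairpin array was above the scrambled array, by a similar amount. The mean log2 difference was 0.21 ± 0.044 (SD, n = 3), or 116.0% of the scrambled level, which ranked 749th from the highest of the 13813 genes. The start of DIS3 lies 233 bases from that of PIBF1, a gene of centriolar satellites transcribed in the opposite direction from the shared window. PIBF1 read 735 on the scrambled array, and its H2, H3 and H4 readings were 889, 867 and 923. Its mean log2 difference was 0.28 ± 0.046 (SD, n = 3). Both genes of this pair were thus higher on every hairpin array, as 16.9% of all genes were. PIBF1 was looked up after the values of DIS3 were known. The start of DIS3L also faces another gene, DIS3L-AS1, at 69 bases, which was not analysed here.

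DIS3L2, the exosome-independent member of the family, had nearly the same value on every array. The scrambled array read 757, and H2, H3 and H4 gave 733, 738 and 749. The mean log2 difference was -0.033 ± 0.016 (SD, n = 3), and its sign turned under quantile (0.021) and cyclic loess normalization (0.001). The 3 nucleases of the family thus differed from one another in size and side: DIS3L was at 42.6%, DIS3 at 116.0% and DIS3L2 at 97.8% of the scrambled level.

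**Figure D2:**
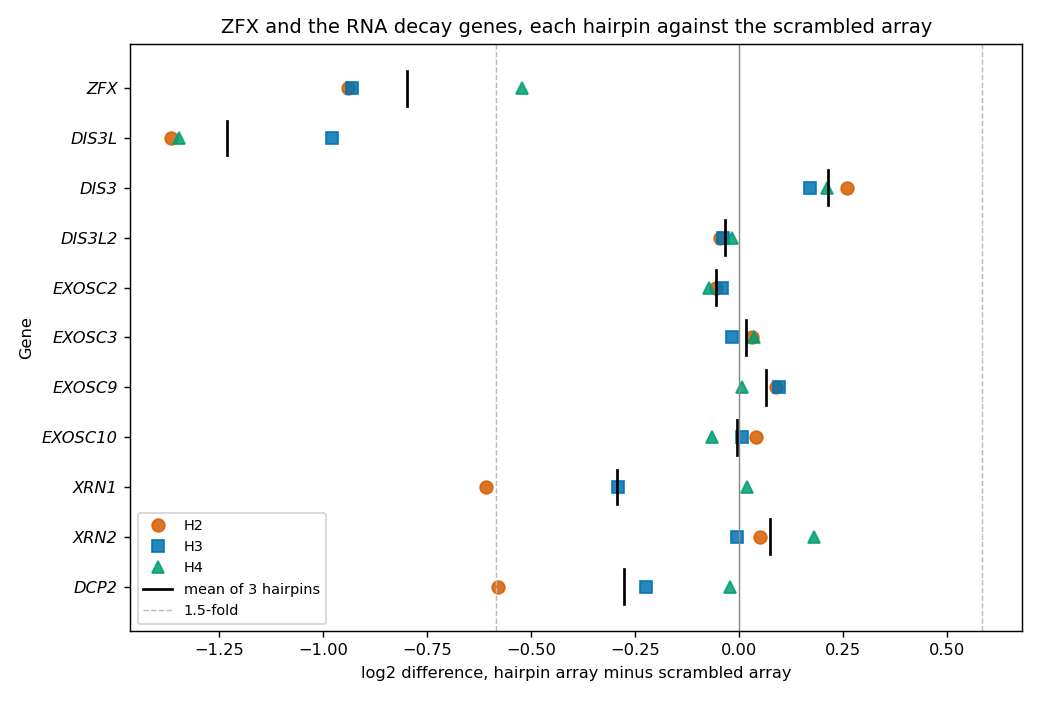
The log2 difference of each hairpin array from the scrambled array (x axis) for ZFX and the 10 genes (y axis), with the mean of the 3 hairpins as a black bar and 1.5-fold as dashed lines. DIS3L is the only one of the 10 beyond 1.5-fold with all 3 hairpins, and XRN1 and DCP2 spread from H2 to H4.

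The exosome subunits were nearly level over the 4 arrays. EXOSC2, an RNA-binding cap subunit, read 6257 on the scrambled array against 6026 (H2), 6083 (H3) and 5951 (H4), for a mean log2 difference of -0.056 ± 0.016 (SD, n = 3). EXOSC3, also of the cap, read 1606 on the scrambled array against 1641, 1589 and 1647 in the same order, a mean difference of 0.017 ± 0.028. The hairpin arrays were all just below the scrambled array for EXOSC2 and on both sides of it for EXOSC3. EXOSC9, of the ring, read 2424 on the scrambled array and 2582, 2594 and 2439, a mean difference of 0.066 ± 0.049. EXOSC10, the nuclear nuclease that joins the complex, read 5727 on the scrambled array and 5893, 5759 and 5481. Its mean difference of -0.005 ± 0.053 had no settled sign, and it was 0.027 when each array was centred on its median. Over these 4 subunits and 3 hairpins, values lay between 95.1% and 107.0% of the scrambled array.

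The hairpins agreed closely for these genes. The SD of the log2 value over H2, H3 and H4, which does not use the scrambled array, was at percentile 1.74 of all 13813 genes for both DIS3L2 and EXOSC2, and at percentile 5.42 for EXOSC3. It was at percentile 15.0 for EXOSC9, 16.9 for EXOSC10 and 11.9 for DIS3. DIS3L had a wider spread, at percentile 81.2, with H3 reading higher than H2 and H4.

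XRN1, the cytoplasmic 5′ exonuclease, and DCP2, the decapping enzyme that acts before it, varied between hairpins more than they differed from the control. XRN1 read 2587 on the scrambled array, and the H2, H3 and H4 arrays read 1698, 2116.5 and 2624. H2 was the lowest, H3 stood between, and H4 was at 101.4% of the scrambled array. DCP2 read 1499 on the scrambled array, and 1003, 1284 and 1477.5 on the others, the same order of hairpins. The mean log2 differences were -0.29 ± 0.31 for XRN1 and -0.27 ± 0.28 for DCP2 (SD, n = 3), each no larger than the spread between hairpins. Without H2 they were -0.13 and -0.12, and without H4 they were -0.45 and -0.40. In the knockdown arrays alone, H2 was at 64.7% of H4 for XRN1 and at 67.9% for DCP2. The SD over hairpins was at percentile 91.6 of all genes for XRN1 and 89.1 for DCP2. Measured as the distance between their 3 log2 differences, DCP2 was the 14th nearest of all genes to XRN1 (distance 0.082 over 4 arrays). H2 was also the array that stood apart at more genes than any other, 274 of 13813.

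XRN2, the nuclear relative of XRN1, did not share that order. The scrambled array read 2864, and the H2, H3 and H4 arrays read 2966, 2858 and 3246, so H4 was highest and the others were close to the control. The mean log2 difference was 0.076 ± 0.094 (SD, n = 3), and 0.024 without H4.

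**Figure D3:**
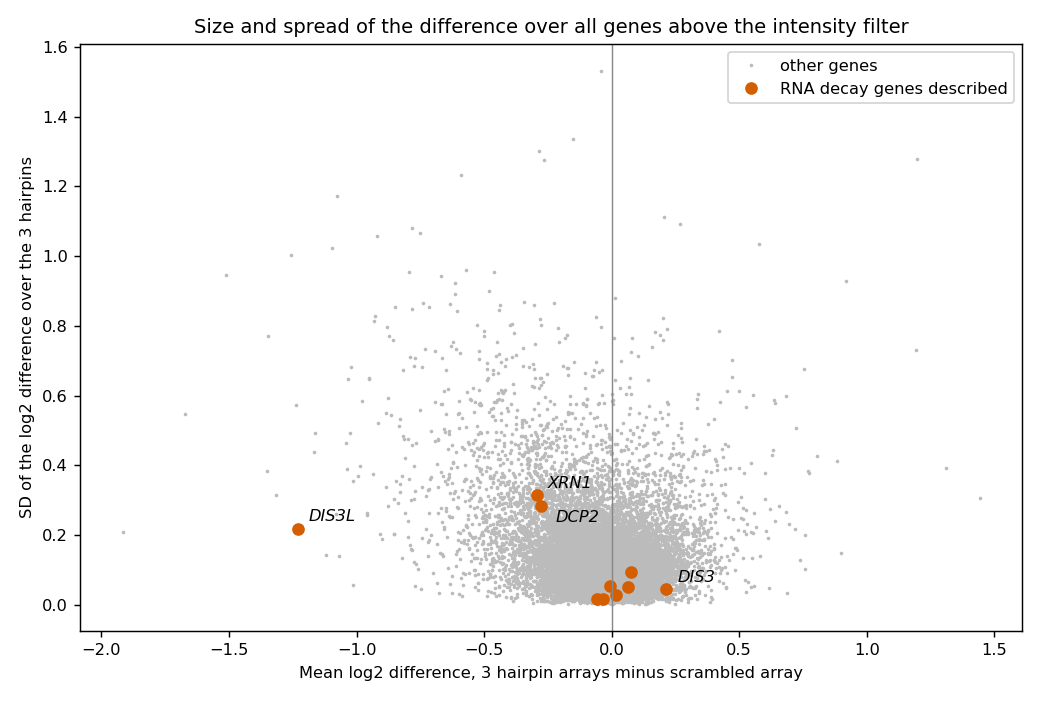
Mean log2 difference from the scrambled array (x axis) against its SD over the 3 hairpins (y axis) for the 13813 genes above the filter, 1 point per gene, with the 10 RNA decay genes in orange. DIS3L lies far to the left, XRN1 and DCP2 are low with a wide spread (SD 0.31 and 0.28), and the other members sit near zero with narrow spread apart from DIS3 at 0.21.

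Counted over the 10 genes, 4 were below the scrambled array with all 3 hairpins (DIS3L, DIS3L2, EXOSC2 and DCP2), beside 30.6% of all genes tested. A further 2 were above it with all 3 (DIS3 and EXOSC9), beside 16.9%, and the remaining 4 lay on both sides of it, beside 52.5%. Centring each array on its median turned these counts to 2 and 4, and the shares over all genes to 23.3% and 23.6%. Taking hairpins singly, H2 left DIS3L and XRN1 at least 1.5-fold lower, as it did 5.61% of genes. DCP2 with H2, at 66.9% of the scrambled array, just missed that cut, beside 65.7% for XRN1. DIS3L alone was at least 1.5-fold lower with H3 (1.14% of genes) and with H4 (2.17%). In the other direction 0 of the 10 were 1.5-fold above it with any hairpin, a size reached by 0.992% of genes on the H2 array, 0.528% on H3 and 0.608% on H4. The median of the 10 mean differences was -0.019, beside -0.035 over all genes, and after DIS3L the next lowest of the 10 was XRN1.

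The genes whose 3 differences were most like those of DIS3L, by Euclidean distance over 4 arrays, were KYNU (0.33), CTSS (0.39), LCP1 (0.41), ANXA3 (0.42) and SRGN (0.44). KYNU, which encodes the tryptophan-breakdown enzyme kynureninase, read 1648 on the scrambled array against 798 (H2), 808 (H3) and 677 (H4). CTSS, the lysosomal protease cathepsin S, read 742 on the scrambled array and 316, 371 and 376. SRGN, the proteoglycan serglycin, read 322 and then 155, 167 and 157, a mean log2 difference of -1.01 ± 0.056 (SD, n = 3). Its hairpin readings were not far above the filter (intensity 110), and the difference was -0.95 with a constant of 16 added. LCP1, an actin-bundling protein, was at 35.5%, 66.2% and 38.1% of the scrambled level, with H3 highest as for DIS3L. ANXA3, an annexin, was at 29.3%, 49.2% and 41.9%. None of the 5 is an RNA decay gene. Centring each array on its median moves all genes on it alike, so it cannot change these distances.

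Around these 10 genes, 103 other genes of RNA decay were listed by role, of which 95 were above the filter, 1 was below it and 7 had no probe set with a single symbol. Limma's moderated test of the 3 hairpin arrays against the scrambled one called 0 of the 95, and 0 of all 13813 genes (0% of those tested), at an adjusted p of 0.05 after Benjamini-Hochberg adjustment. ZFX, the gene the hairpins target, was among those not called, so a gene left uncalled is not shown to be unchanged. The mean log2 differences of the 95 ran from -0.82 to 0.23, beside -1.92 to 1.44 over all genes. With all 3 hairpins, 33 of the 95 were below the scrambled array and 16 above it, beside 30.6% and 16.9% of all genes. Centring on the array median gave 26 and 24. Their median difference was -0.018, beside -0.035 over all genes, and both values are close to zero.

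**Figure D4:**
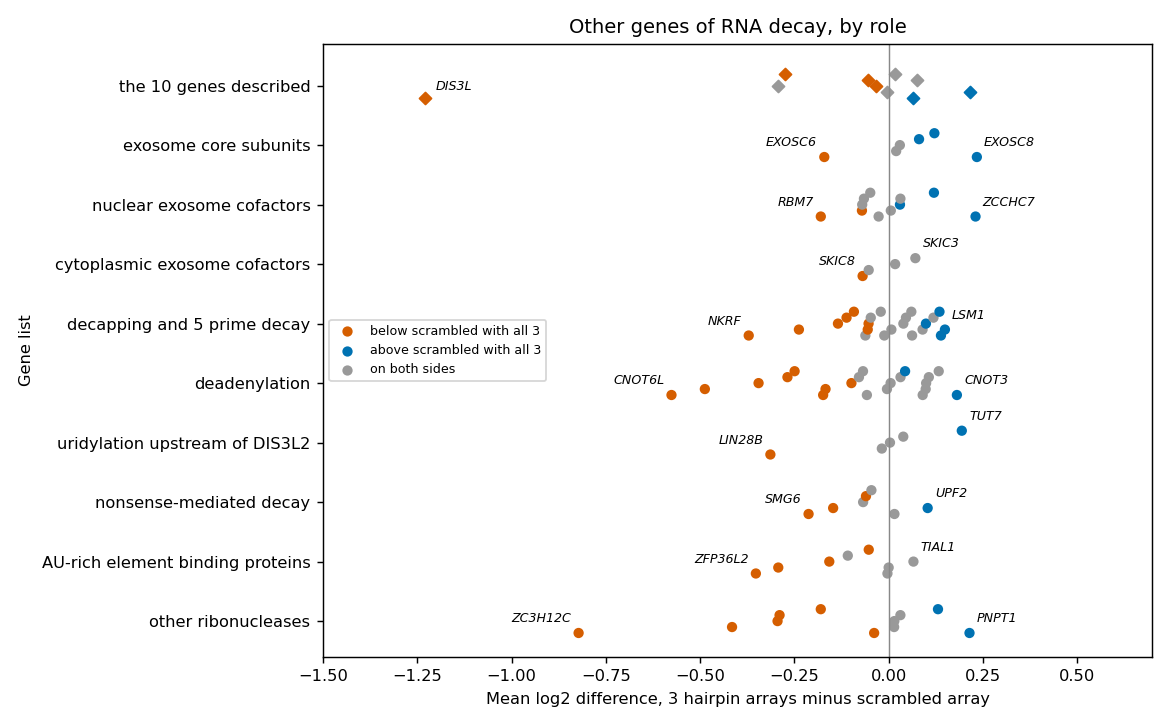
Mean log2 difference from the scrambled array (x axis) of the 10 genes (diamonds) and of 95 other RNA decay genes (circles), 1 point per gene, in rows by role (y axis). Colours show genes below (orange) or above (blue) the scrambled array with all 3 hairpins or on both sides of it (grey), and the lowest and highest gene of each list is named, with DIS3L and ZC3H12C furthest to the left.

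The other exosome core subunits were on both sides of the control: 1 of 6 was lower and 3 were higher with all 3 hairpins (median 0.055). Over all genes, 30.6% were lower and 16.9% higher (median -0.035). EXOSC8 had the highest mean difference (0.23 ± 0.086, SD, n = 3) and EXOSC6 the lowest (-0.17 ± 0.054). Cofactors of the nuclear exosome, which choose its substrates, had 2 of 11 lower and 3 higher (median -0.026). They ranged from RBM7, of the NEXT complex, at 88.3% of the scrambled level to ZCCHC7, of the TRAMP complex, at 117.3%. In the cytoplasm DIS3L and the exosome depend on the SKI complex, which feeds them messenger RNA. Of its 4 measured genes and partners, 1 was lower and 0 were higher with all 3 hairpins (median -0.018), from SKIC8 at 95.3% to SKIC3 at 105.0%. The cytoplasmic partners of DIS3L thus stayed close to the control while DIS3L was at 42.6%.

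Decapping and 5′ decay genes had 7 of 22 lower and 4 higher with all 3 hairpins (median -0.002), beside 30.6% and 16.9% of all genes. LSM1, of the ring that binds shortened messenger RNA tails, was highest at 110.9%. NKRF, a partner of XRN2, was lowest and read 684 on the scrambled array against 492 (H2), 549 (H3) and 547 (H4). All 3 hairpin arrays lay below the control, with a mean log2 difference of -0.37 ± 0.089 (SD, n = 3; adjusted p = 0.9998 in limma).

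Deadenylation genes, which shorten the poly(A) tail before decay from either end, had 8 of 21 lower and 2 higher with all 3 hairpins (median -0.057). Over all genes the shares were 30.6% and 16.9% (median -0.035). The deadenylase CNOT6L was lowest and read 986 on the scrambled array against 523 (H2), 774 (H3) and 714 (H4), or 67.1% on average. It has 2 probe sets, and their mean gave a log2 difference of -0.41 in place of -0.58. CNOT9, a subunit of the same CCR4-NOT complex, was named after its values were seen. It read 5193 on the scrambled array and 3705, 3522 and 3895, a mean difference of -0.49 ± 0.073 (SD, n = 3; adjusted p = 0.9998 in limma). CNOT3, another subunit, was highest at 113.4%. The deadenylase CNOT6 and the poly(A) nuclease subunit PAN3, also named after their values were seen, were lowest with H2. The H2, H3 and H4 differences on the log2 scale were -0.63, -0.058 and -0.061 for CNOT6 and -0.66, -0.077 and -0.068 for PAN3. Other genes of this list were highest with H2, such as CNOT7 (0.25, -0.047 and 0.066) and PABPC4 (0.24, 0.15 and -0.072).

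Enzymes and factors of uridylation, which marks RNA for DIS3L2, had 1 of 5 lower and 1 higher with all 3 hairpins (median 0.004). All genes had 30.6% lower and 16.9% higher (median -0.035), and the lists here are short. The uridylyltransferase TUT7 was at 114.4% and LIN28B, which binds let-7 precursors, at 80.5%. Genes of nonsense-mediated decay had 3 of 7 lower and 1 higher (median -0.060), from SMG6, its endonuclease, at 86.3% to UPF2 at 107.5%. Beside 30.6% and 16.9% of all genes, proteins that bind AU-rich elements had 4 of 8 lower and 0 higher (median -0.080). Among them the decay factor ZFP36L2 was lowest at 78.4% (log2 differences of -0.63 for H2, -0.24 for H3 and -0.19 for H4), and TIAL1 was highest at 104.7%.

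Among 11 other ribonucleases, 6 were lower and 2 higher with all 3 hairpins (median -0.038), beside 30.6% and 16.9% of all genes. ZC3H12C, of the Regnase family of endonucleases, read 1097 on the scrambled array against 663 (H2), 558 (H3) and 646 (H4). It was well below the control on each array, with a mean log2 difference of -0.82 ± 0.13 (SD, n = 3; adjusted p = 0.9998 in limma), or 56.6% of the scrambled level. It was the only one of the 95 genes that all 3 hairpins left at least 1.5-fold lower (0.311% of all genes), and 0 were 1.5-fold higher (0.0507%). Its relative ZC3H12A, named after its values were seen, was at 75.0%. PNPT1, the mitochondrial exonuclease, was highest at 116.0%.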

How the data were processed

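Per the submitters' processing notes, the authors used RMA, with settings, software and genome build not given in the sources used here. The values they deposited, 1 intensity for each of the probe sets on each of the 4 arrays, are linear (medians 226.0 to 232.3), although RMA returns log2 values. The arrays' medians and maxima differ slightly, so they do not share 1 distribution at the level of probe sets. No detection calls or scan batches were used, and the number of arrays limits the precision.

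Here log2 of each intensity was taken. Of 33297 probe sets, 19460 carry exactly 1 symbol in the platform annotation, 1754 several and 12083 none. The highest-mean probe set stood for a gene, and genes with a mean log2 intensity under the 25th percentile (6.78) were left out. Limma 3.58.1 (R 4.3.3; lmFit, eBayes with an intensity trend) compared 3 hairpin arrays with 1 scrambled array over 13813 genes, with Benjamini-Hochberg adjustment and 2 residual degrees of freedom. The lone scrambled array was assumed to vary like the others, so p-values measure only the spread between hairpins. In 1 simulation each of this comparison over 13813 genes, limma called 0 of 200 genes when the change was 2-fold, and 161 of 200 when it was 4-fold (6 unchanged genes were called there). The simulated noise was drawn independently for each array from each gene's SD over hairpins, with no array-wide effects. There the first listed probe set stood for a gene. SDs are over hairpins and leave out the scrambled array's error. Named genes are the 10 members, ZFX, the 5 genes nearest DIS3L, the lowest and highest gene of each list and any list gene 1.5-fold away with every hairpin; exceptions are named as such. The members and lists were chosen with earlier results of these data known. Alternatives were 3 normalizations, an added constant of 16, averaged probe sets, other filters, no trend and each hairpin left out. Tables and figures used Python 3.11.15, pandas 2.3.3 and matplotlib 3.10.9.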

Additional observations from a re-analysis of the deposited data

How the results depend on the processing

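DIS3L kept its direction and its size within 1 SD over all 8 alternatives. Its mean log2 difference ran from -1.23 to -1.18 under 5 of them, and from -1.36 to -1.16 with a hairpin left out. Part of this was fixed in advance. Each of the 10 genes has 1 probe set, so averaging probe sets changed none of them. Leaving out 1 of 3 hairpins cannot move a mean by 1 SD or turn a sign that all 3 share. DIS3, EXOSC9, XRN1, XRN2 and DCP2 also kept their direction under the 8 alternatives, with the same limits, and DIS3 moved little. With a hairpin left out, 3 of these genes moved by over 1.5 times. XRN1 lay between -0.45 (without H4) and -0.13 (without H2), and DCP2 between -0.40 and -0.12 in the same way. XRN2 lay between 0.024 (without H4) and 0.12 (without H3). EXOSC2 and EXOSC3 kept their sign but not their size: EXOSC2 was -0.024 with arrays centred, and EXOSC3 was 0.050 with arrays centred and 0.0079 without H4. Small differences changed sign: EXOSC10 was 0.027 with arrays centred and ranged from -0.028 to 0.024 with a hairpin left out, and DIS3L2 was 0.021 under quantile and 0.0010 under cyclic loess normalization. The count of the 10 genes below the scrambled array with all hairpins was 4 as deposited and 2 after centring, quantile or cyclic loess normalization. The count above it was 2 as deposited, 4 after centring or quantile normalization and 2 to 4 with a hairpin left out. Of the other decay genes, 16 were above as deposited, 28 after quantile normalization and 22 to 28 with a hairpin left out. Over all genes, 2334 were above as deposited and 3250 to 3853 with a hairpin left out, when fewer arrays had to pass. The 1.5-fold counts went from 43 lower and 7 higher to 58 to 126 lower and 12 to 24 higher. Among genes at or above the 50th percentile, where fewer were tested, 1449 were above and 28 were 1.5-fold lower. Limma called 0 genes in each alternative. No paired analysis was possible because the scrambled arm has 1 array and no label pairs it with a hairpin array. With 1 control array, no difference here has a replicate check on the control side.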
